A study of Mus musculus with 6 samples.

Results

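The genes described here encode the proteins of the cytosolic ribosome. They were all protein-coding genes of the GENCODE annotation of the mouse genome GRCm38 whose symbol begins with Rpl or Rps, without the Rps6k kinases, Rps6kl genes, Rps19bp1 and Rpl7l1, which share the letters but encode other proteins. The rule gave 90 of 21938 protein-coding genes, and it used names only, not any measured value. Of the 90, 77 were core genes, 31 for the small subunit and 46 for the large subunit, and 13 were paralogues or retrogene copies. CUT&RUN was carried out on bone marrow-derived macrophages (BMDMs), which were grown from femur and tibia marrow of C57BL/6 mice in medium conditioned by L929 cells. In CUT&RUN, a nuclease held by an antibody releases the DNA around a chromatin mark, and the released fragments are sequenced. Cells received lipopolysaccharide (LPS), the bacterial product sensed by TLR4, for 1 h, or PBS as the control. Each treatment had 1 library for H3K27ac (acetylated lysine 27 of histone H3, a mark of active promoters and enhancers), 1 for H3K4me1 (monomethylated lysine 4, most common at enhancers and on the flanks of promoters) and 1 for control IgG. The labels give the genotype of every library as C57BL/6 and name no other allele or agent. Peak lists were analysed for the 4 H3K27ac and H3K4me1 libraries. With 1 library per treatment and antibody there is no replicate error, no test between treatments could be made, and every difference given below is between single libraries.

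Ribosomal proteins assemble with ribosomal RNA into a small subunit, which reads the mRNA, and a large subunit, which joins amino acids. Their genes are short, are transcribed at a high rate in nearly every cell, and start transcription inside a run of pyrimidines that becomes the terminal oligopyrimidine (TOP) tract of the mRNA, the element through which mTORC1 controls their translation. Many carry small nucleolar RNA (snoRNA) genes in their introns, and their promoters commonly hold binding sequences for ETS family factors such as GABP, for SP and KLF factors and for YY1.

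The number of peaks and of fragments per peak limits what can be seen at these genes. The lists held 4200 H3K27ac peaks under LPS and only 52 under PBS, and 73049 and 64758 H3K4me1 peaks. Fragment numbers were worked out from the deposited fold enrichment and p-value of each peak. The median summit rested on 9 fragments in the LPS H3K27ac list, 11 in the PBS H3K27ac list and 17 in each H3K4me1 list. Library depth was estimated at 5660000 to 7210000 fragments. The lowest estimate was for LPS H3K27ac and the highest for PBS H3K27ac, so estimated depth did not follow the number of H3K27ac peaks. The reason for the short PBS H3K27ac list was not tested. Of 8 macrophage marker genes, all 8 had an LPS H3K4me1 peak within 10 kb of the transcription start site (TSS), 6 a PBS H3K4me1 peak and 2 an LPS H3K27ac peak. The same window held an LPS H3K4me1 peak at 3 of 4 B cell markers, 2 of 4 T cell markers, 1 of 4 neutrophil markers and 1 of 3 hepatocyte markers, and an LPS H3K27ac peak at 1 T cell marker and at none of the others, so a peak near a marker did not separate these cell types sharply.

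Promoter sequences are shown first for ribosomal protein genes at which a mark was found near the TSS, since the peaks described below lie on or beside them. Each runs from 70 bases before to 15 bases after the RefSeq start of the gene, on the gene's own strand of GRCm38.p6. Capitals mark a pyrimidine run of at least 8 bases that touches the 10 bases on either side of the start, the ETS core CCGGAA and the GC box GGGCGG, the last pair on either strand. The first 4 genes had an H3K27ac peak under LPS, and Rpl27 had H3K4me1 without H3K27ac. They were selected after the peaks were seen and because no more than 30 of their printed bases lie in an exon of a coding transcript.
Rpl4, plus strand, chr9:64173317-64173401: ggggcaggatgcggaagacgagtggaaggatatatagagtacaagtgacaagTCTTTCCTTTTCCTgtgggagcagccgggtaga
Rpl19, plus strand, chr11:98026854-98026938: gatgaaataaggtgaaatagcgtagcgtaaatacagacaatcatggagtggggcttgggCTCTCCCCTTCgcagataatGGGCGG
Rpl35a, plus strand, chr16:33056383-33056467: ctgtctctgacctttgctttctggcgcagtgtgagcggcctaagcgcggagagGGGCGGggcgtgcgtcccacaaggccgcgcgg
Rpl11, minus strand, chr4:136053379-136053463: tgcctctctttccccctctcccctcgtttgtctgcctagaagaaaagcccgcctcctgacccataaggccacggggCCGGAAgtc
Rpl27, plus strand, chr11:101442175-101442259: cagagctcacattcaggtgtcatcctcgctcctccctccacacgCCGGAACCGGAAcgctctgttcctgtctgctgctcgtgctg
In Rpl4 the run was 14 bases long and in Rpl19 it was 11 bases long, and both lay upstream of the RefSeq start. Rpl35a and Rpl11 had no run of 8 bases there. Rpl27 carried a pair of adjacent ETS cores upstream of its start.

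H3K27ac was found at few ribosomal protein promoters, and only in the LPS list. A peak was counted when at least 1 bp of it lay within the stated distance of the TSS of the principal transcript. Under LPS, 10 of 90 genes (11.1%, 95% Wilson interval 6.15 to 19.3%) had an H3K27ac peak within 1 kb, where 5.22% of all protein-coding genes had one. Within 10 kb it was 19 of 90 (21.1%, 14.0 to 30.6%) against 9.04% of all protein-coding genes. Under PBS none of the 90 had an H3K27ac peak at either distance, but only 0.0820% and 0.169% of all protein-coding genes did, so 0 of 90 in a list of 52 peaks says little about these genes. The intervals treat genes as separate draws and cover counting error only. Promoters with many CpG dinucleotides, which most of the ribosomal protein genes with a RefSeq promoter have, are a closer comparison. Of 5864 genes with an observed to expected CpG ratio of at least 0.75, 8.80% had an LPS H3K27ac peak within 1 kb and 13.6% within 10 kb. Nuclear genes for the mitochondrial ribosome had one within 1 kb at 9 of 78 (11.5%, 6.19 to 20.5%), a share that lay within the interval of the cytosolic set. The shares of ribosomal protein genes, of these comparison sets and of all genes are plotted together.

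**Figure D1:**
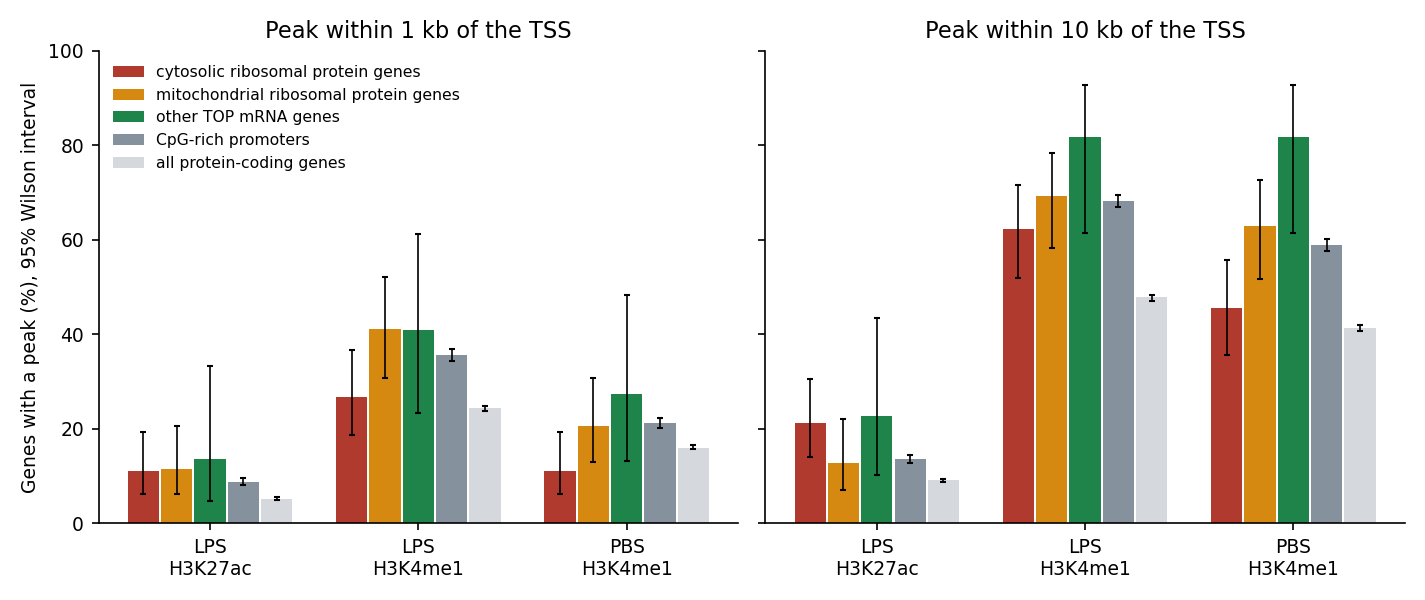
Share of genes (%, bars, with 95% Wilson intervals for counting error) with a peak within 1 kb (left) or 10 kb (right) of the TSS in each of 3 peak lists, for cytosolic and mitochondrial ribosomal protein genes, other genes with TOP mRNAs, CpG-rich promoters and all protein-coding genes. The PBS H3K27ac list is left out, as no ribosomal protein gene had a peak in it. Within 1 kb the cytosolic ribosomal protein genes stood at 11.1% for LPS H3K27ac, 26.7% for LPS H3K4me1 and 11.1% for PBS H3K4me1.

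The peaks were not spread evenly over the subunits. Within 1 kb, LPS H3K27ac was found at 8 of 46 large subunit genes (17.4%, 9.09 to 30.7%), at 1 of 31 small subunit genes (3.23%, 0.572 to 16.2%), which was Rps12, and at 1 of 13 paralogues or retrogenes, which was Rpl22l1. Within 10 kb the counts were 16 of 46 (34.8%, 22.7 to 49.2%) and 1 of 31 (3.23%, 0.572 to 16.2%) for the core genes. Over all protein-coding genes the shares were 5.22% within 1 kb and 9.04% within 10 kb. Of the 9 ribosomal protein genes with a peak within 10 kb only, 8 had it nearer to the TSS of another gene, as given below. The 10 kb counts thus include many peaks nearer to a neighbouring TSS. No test was made of this difference, and the intervals overlapped at 1 kb.

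The strongest promoter peak of H3K27ac was at Rpl21, which encodes a large subunit protein. It lay at chr5:146832956-146833116 in a non-coding exon at the start of the gene, with its summit 106 bp downstream of the TSS. It ranked 111 of 4200 by q-value (−log10 q 9.81), with a fold enrichment of 6.84 from 23 fragments over a control level of 2.51. It was the only promoter peak of H3K27ac at these genes that was overlapped by H3K4me1, under both treatments. All 3 peaks at Rpl21 ended at the same base. Over the genome, 4 of 1256 LPS H3K27ac peaks that overlapped a PBS H3K4me1 peak shared its end in this way (0.318%), and 12 of 1411 shared that of an LPS H3K4me1 peak (0.850%). The part of the shared end in the Rpl21 signal was not tested.

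Next by q-value came Rpl35a, Rpl4 and Rpl22l1. Rpl35a, a large subunit gene mutated in some patients with Diamond-Blackfan anaemia, had its summit 90 bp upstream of the TSS (chr16:33056257-33056423, fold enrichment 7.49, −log10 q 7.46, 14 fragments). Its start lies 263 bp from that of Iqcg, which is transcribed the other way. Rpl4, whose protein lines part of the exit tunnel for the growing peptide, had its summit 155 bp downstream of the TSS in an intron (chr9:64173418-64173592, fold enrichment 7.14, −log10 q 6.02, 10 fragments). It too has an opposed neighbour, Zwilch, at 271 bp upstream. The Rpl35a peak lay between the opposed starts and cannot be assigned to 1 of them from its position, whereas the Rpl4 peak lay on the Rpl4 side of both. Rpl22l1, a paralogue of Rpl22, had its summit 237 bp downstream of the TSS (chr3:28805561-28805734, fold enrichment 6.77, −log10 q 5.66, 11 fragments).

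The other 6 promoter peaks were weaker and lay on both sides of the start. Rpl39, a very small protein of the exit tunnel, had a summit 88 bp upstream of the TSS, with a −log10 q of 5.19 and 8 fragments. At 313 bp it was the widest of the 10 peaks. Rpl19 had a summit 27 bp upstream, inside the sequence printed above, with a −log10 q of 4.23 and 13 fragments. The small subunit gene Rps12 had its summit 656 bp upstream, the farthest of the 10, with a −log10 q of 4.17 and 8 fragments. Rpl10, whose protein is among the last to join the large subunit, had its summit 471 bp downstream, with a −log10 q of 4.09 and 7 fragments. Of these 4, all but Rpl19 had fewer fragments at the summit than the list's median of 9.

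Rplp1 encodes an acidic protein of the ribosomal stalk, the arm that recruits translation factors. Its summit lay 260 bp upstream with a −log10 q of 3.10 and 9 fragments. Rpl11, which with Rpl5 can bind Mdm2 and so links ribosome assembly to p53, had the weakest of the 10 peaks, 163 bp downstream, with a −log10 q of 2.22, a fold enrichment of 3.71 and 12 fragments over a control level of 2.51. Over the 10 peaks the median was 10.5 fragments and a −log10 q of 4.71, and over all 1121 promoter peaks of this list it was 11.0 fragments and 4.17, so the peaks at ribosomal protein genes were of ordinary strength. The plot of fragments against control level shows them inside the cloud of other promoter peaks.

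**Figure D2:**
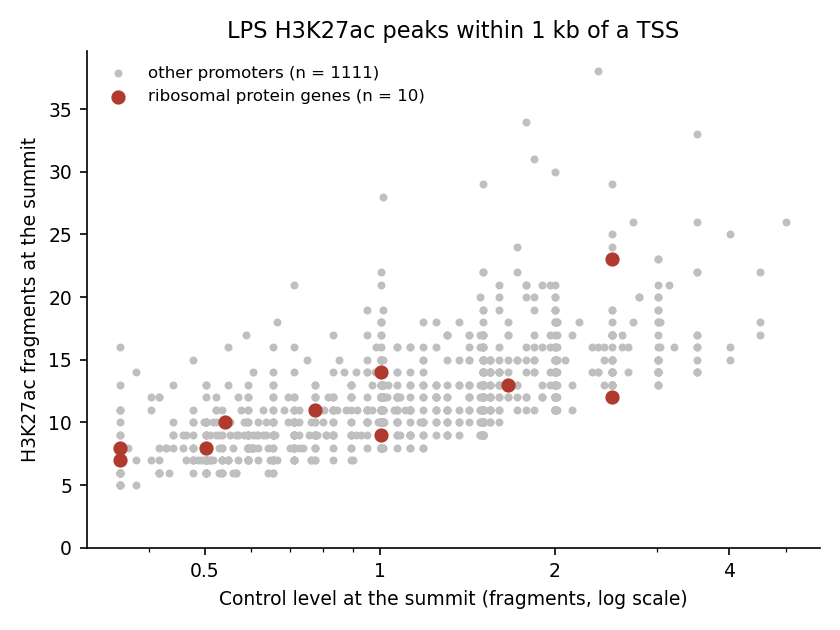
Fragments at the summit (vertical axis) against the control level at the summit (horizontal axis, log scale) for each LPS H3K27ac peak within 1 kb of a protein-coding TSS, with the 10 peaks at ribosomal protein genes in red. Those 10 lie between 7 and 23 fragments, and the other promoter peaks between 5 and 38.

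Peaks at 1 to 10 kb mostly lay nearer to the TSS of another gene, in some cases by a small margin. Of the 9 genes with LPS H3K27ac within 10 kb only, 8 had a peak nearer to the TSS of another protein-coding gene, and the exception was Rpl37a, with a summit 2526 bp downstream of its own TSS on 5 fragments. The strongest was an intronic peak of Wdr38 (−log10 q 10.6, rank 83), 160 bp from the Wdr38 TSS and 7465 bp downstream of that of Rpl35. The retrogene Rpl9-ps1 was counted because of a peak in a coding exon of Ccl3, a chemokine gene induced by LPS, 126 bp from the Ccl3 TSS (−log10 q 5.54). For Rpl36a the peak lay 216 bp from the TSS of Btk, the kinase of B cell and myeloid signalling. That near Rpl36 lay 257 bp from the TSS of 2410015M20Rik, and that near Rpl24 lay in an intron of Zbtb11. The others were near ties. The summit near Rpl12 lay 5762 bp from the Lrsam1 TSS and 5817 bp from that of Rpl12. That near Rpl17 lay in an intron of Rpl17 itself, 3578 bp from the BC031181 TSS and 3732 bp from that of Rpl17. Counting a peak only for its nearest TSS left 11 of the 19 genes. Rpl18 turned on the annotation. Its peak, 185 bp from Sphk2, was 2360 bp downstream of the principal TSS and 254 bp upstream of the RefSeq start of Rpl18.

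For H3K4me1 near the start, the share of all genes lay inside the interval of the ribosomal protein genes in both lists. Under LPS, 24 of 90 had a peak within 1 kb (26.7%, 18.6 to 36.6%), where 24.3% of all protein-coding genes and 35.6% of CpG-rich promoters had one. Under PBS it was 10 of 90 (11.1%, 6.15 to 19.3%), against 16.0% of all genes and 21.2% of CpG-rich promoters. The CpG-rich share lay above this interval but inside that of the 77 core genes (13.0%, 7.21 to 22.3%). None of the 13 paralogues or retrogenes had such a peak. CpG-rich promoters were counted only among genes with a RefSeq promoter, which some of the 90 genes lack. The mitochondrial ribosomal protein genes stood at 41.0% (30.8 to 52.1%) and 20.5% (13.0 to 30.8%) in the same lists. Both values lay above the intervals of the 90 genes, but the intervals of the sets overlapped in each list. For the core genes alone, the PBS value of 20.5% lay inside the interval. Within 10 kb, 56 of 90 had LPS H3K4me1 (62.2%, all genes 47.8%) and 41 of 90 had PBS H3K4me1 (45.6%, all genes 41.3%). By subunit, LPS H3K4me1 within 1 kb was found at 16 of 46 large subunit genes (34.8%, 22.7 to 49.2%) and 6 of 31 small subunit genes (19.4%, 9.19 to 36.3%), whose intervals overlapped.

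More of these genes had H3K4me1 in the LPS list alone than in the PBS list alone, as over the genome. Within 1 kb, 8 of 90 were marked in both lists (8.89%, all genes 11.1%), 16 in the LPS list only (17.8%, 11.2 to 26.9%, all genes 13.2%) and 2 in the PBS list only (2.22%, 0.612 to 7.74%, all genes 4.94%). The LPS list was also the longer of the lists. Cut by q-value to the length of the PBS list, it marked 21 of the 90 within 1 kb.

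Among the genes marked in both lists, Rpl27a had the strongest LPS peak of H3K4me1. It was 1682 bp wide, with a −log10 q of 19.8 on 32 fragments, but its summit lay 1701 bp upstream and only its edge came within 1 kb. Under PBS a separate peak had its summit 235 bp upstream of Rpl27a. Rps3a1, a small subunit gene, had overlapping peaks with summits 147 bp upstream under LPS (19 fragments) and 37 bp upstream under PBS (−log10 q 9.71, 21 fragments). At Rpl21 the summits were 27 bp upstream under LPS (−log10 q 7.75) and 89 bp downstream under PBS (8.75). Rpl30 had summits 651 bp upstream under LPS and 554 bp upstream under PBS (−log10 q 6.39). The peaks of Rps13, Rpl10a and Rpl36a also overlapped between treatments. Rps14, the small subunit gene lost in the 5q- syndrome, is uncertain. Its principal transcripts tie, and the upstream start used here lies inside an intron of Ndst1, with PBS (−log10 q 10.0) and LPS (8.46) peaks there among a dense group of Ndst1 intron peaks.

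The 16 genes marked in the LPS list only were led by Rps29 (−log10 q 11.5, 22 fragments, summit 64 bp upstream) and Rpl15 (8.45, 26 fragments, 30 bp upstream). Rps29 is a small zinc-binding protein of the small subunit and Rpl15 a large subunit protein. The start of Rpl15 lies 69 bp from that of Nkiras1 on the opposite strand. The Rpl15 peak, 397 bp wide, cannot be assigned to 1 of these genes from its position. Rpl27, whose promoter is printed above, followed with a −log10 q of 7.75 and 16 fragments, and its summit lay 78 bp upstream of the principal TSS and 25 bp upstream of the RefSeq start, inside the sequence printed above. The next were Rpl22 (6.48) and Rps12 (6.01), which also carried H3K27ac. Below these came Rpl10 (5.24, summit 1123 bp upstream), Rpl37a (5.19), Rpl35 (4.95), Rplp2 (4.62), the stalk partner of Rplp1, and Rpl36 (4.62). Those marked in the PBS list only were Rpl34 (−log10 q 7.73, summit 1114 bp downstream, in a coding exon) and Rps20 (3.69, 43 bp upstream). The peak of Rpl34 was overlapped by an LPS H3K4me1 peak that did not reach into the 1 kb window, so its absence under LPS is a matter of the window.

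**Figure D3:**
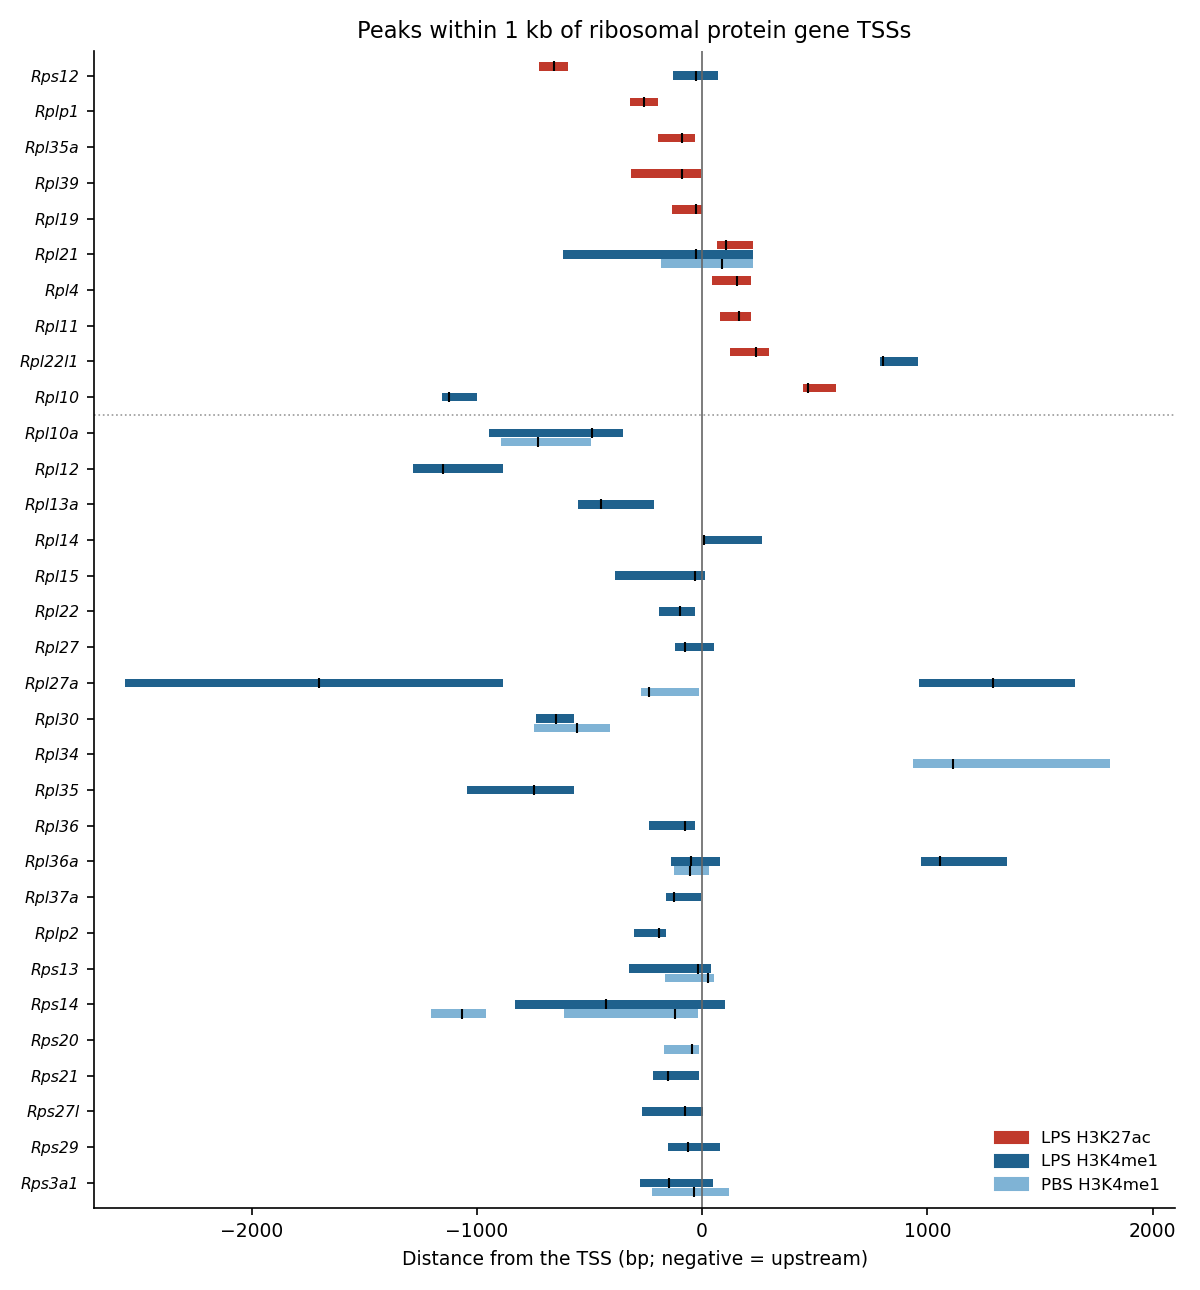
Peaks with at least 1 bp within 1 kb of the TSS of a ribosomal protein gene, drawn to scale along the gene's own strand (horizontal axis, bp from the TSS, negative upstream), with the summit as a black tick. The 10 genes with LPS H3K27ac (red) stand above the dotted line, and LPS (dark blue) and PBS (light blue) H3K4me1 are drawn for all 32 genes. Most LPS H3K4me1 summits lie just left of the TSS, while H3K27ac lies on either side.

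The marks sat at different places. LPS H3K4me1 had its summit within 1 kb at 21 of these genes, 19 of them upstream of the TSS (90.5%), with a median position of 78 bp upstream. Over all protein-coding genes 60% of 5792 such summits were upstream, and over the mitochondrial ribosomal protein genes 48.4% of 31. The 200 bp immediately upstream held 14 of the 21 summits (66.7%, 45.4 to 82.8%), against 30% over all genes and 32.3% at mitochondrial ribosomal protein genes. Under PBS, 7 of 9 summits were upstream (77.8%, all genes 63.2%). The summits of LPS H3K27ac fell on both sides, 5 of 10 upstream, with 39.1% upstream over all genes. The position of the TSS bears on these values. Of the 64 genes with a RefSeq start, 52 had it within 100 bp of the principal TSS and 12 had it farther away, by up to 2614 bp. With the RefSeq start, 18 of 20 LPS H3K4me1 summits were upstream. No test of position was made.

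**Figure D4:**
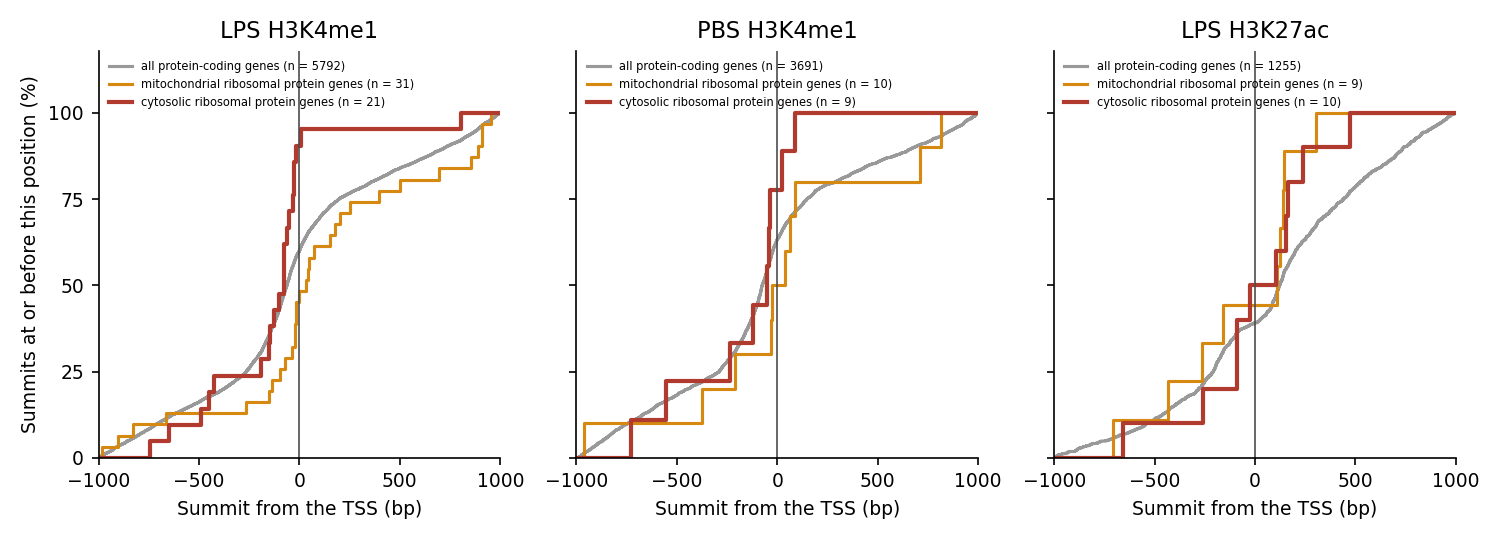
Cumulative share of summits (%, vertical axis) by distance from the TSS (bp, horizontal axis, negative upstream) for summits within 1 kb, in 3 peak lists. Under LPS the H3K4me1 curve of the cytosolic ribosomal protein genes (red) rises to 90.5% at the TSS, while that of all genes (grey) stands at 60% and that of mitochondrial ribosomal protein genes (orange) at 48.4%.

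H3K27ac and H3K4me1 were then compared at the same promoters. Of the 10 genes with LPS H3K27ac within 1 kb, 4 also had LPS H3K4me1 there (Rpl22l1, Rpl21, Rps12 and Rpl10), and 6 had H3K4me1 in neither list. At Rpl10 the H3K4me1 peak only touched the edge of the window, 1000 bp from the TSS. Its summit lay 1123 bp upstream, and that of H3K27ac 471 bp downstream. Over all genes with LPS H3K27ac within 1 kb, 498 (43.5%) had LPS H3K4me1, a share close to that of the ribosomal protein genes. In Rps12 the marks lay side by side, with H3K4me1 27 bp upstream of the TSS and H3K27ac 656 bp upstream.

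Ribosomal protein genes did not lack peaks more often than all protein-coding genes. No list had a peak within 1 kb of 58 of the 90 (64.4%, all genes 68.3%), and within 10 kb 27 had none (30%, all genes 47.4%). In alphabetical order these began with Rpl10-ps3, Rpl10l, Rpl23a, Rpl26, Rpl31, Rpl36-ps4, Rpl36a-ps1, Rpl39l, Rpl41 and Rpl5. They thus include both retrogene copies and genes whose proteins are in every ribosome, such as Rpl5 and Rpl23a. H3K4me1 was found in neither list within 10 kb at 13 of 31 small subunit genes (41.9%, 26.4 to 59.2%) and 9 of 46 large subunit genes (19.6%, 10.7 to 33.2%), where 48.4% of all protein-coding genes had it in neither, so that the small subunit share was near the background. Of the 13 paralogues or retrogenes, 1 had LPS H3K27ac within 1 kb (Rpl22l1), 2 had LPS H3K4me1 (Rpl22l1 and Rps27l, a p53 target related to Rps27) and none had PBS H3K4me1.

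Features of the genes that played no part in their choice set them beside the other sets. RefSeq gave a promoter, 250 bases before to 50 after the start, for 64 of the 90. A pyrimidine run of at least 8 bases at the start was present in 27 of 64 (42.2%) and in 13.3% of 16538 promoters over all genes. Other genes with TOP mRNAs had it at a similar share, 7 of 15 (46.7%). The ETS core CCGGAA, searched like the other motifs on both strands except where stated, was in 32 of 64 (50%, all promoters 19.9%) and in 58.0% of mitochondrial ribosomal protein promoters. The GC box GGGCGG was in 59.4%, above the share of all promoters (48.4%) and below that of CpG-rich promoters (77.2%). The YY1 core AAGATGG was in 12.5% (all 6.39%) and in 18.8% of mitochondrial ribosomal protein promoters. The TATA box TATAAA, searched on the gene's strand between 45 and 16 bases before the start, was in 1.56% (all 2.91%). Motifs of factors activated by LPS were also counted. The AP-1 site TGANTCA was in 2 of 64 (3.12%, all 6.98%, CpG-rich promoters 2.97%). For NF-kB a single strict pattern was searched, and other forms of the site were not. That pattern was in none, but only 0.399% of all promoters held it, so 0 of 64 says little about these genes. These counts do not show how many promoters hold an NF-kB site of another form. A match describes the letters and not a bound factor, and no match says only that these letters are not in this window.

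The genes were also short and rich in snoRNAs. Their median length was 3216 bp against 17425 bp over all protein-coding genes. At least 1 snoRNA gene was held by 30 of 90 (33.3%), against 1.18% of all genes and none of the mitochondrial ribosomal protein genes. Among other genes with TOP mRNAs it was 5 of 22 (22.7%), so hosting snoRNAs was not particular to the ribosomal protein genes. Among the 8 genes with LPS H3K27ac within 1 kb and a RefSeq promoter, 5 had the pyrimidine run and 3 the ETS core, beside 22 (39.3%) and 29 (51.8%) of the 56 without such a peak. With 8 genes, these shares differ by few promoters.

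**Figure D5:**
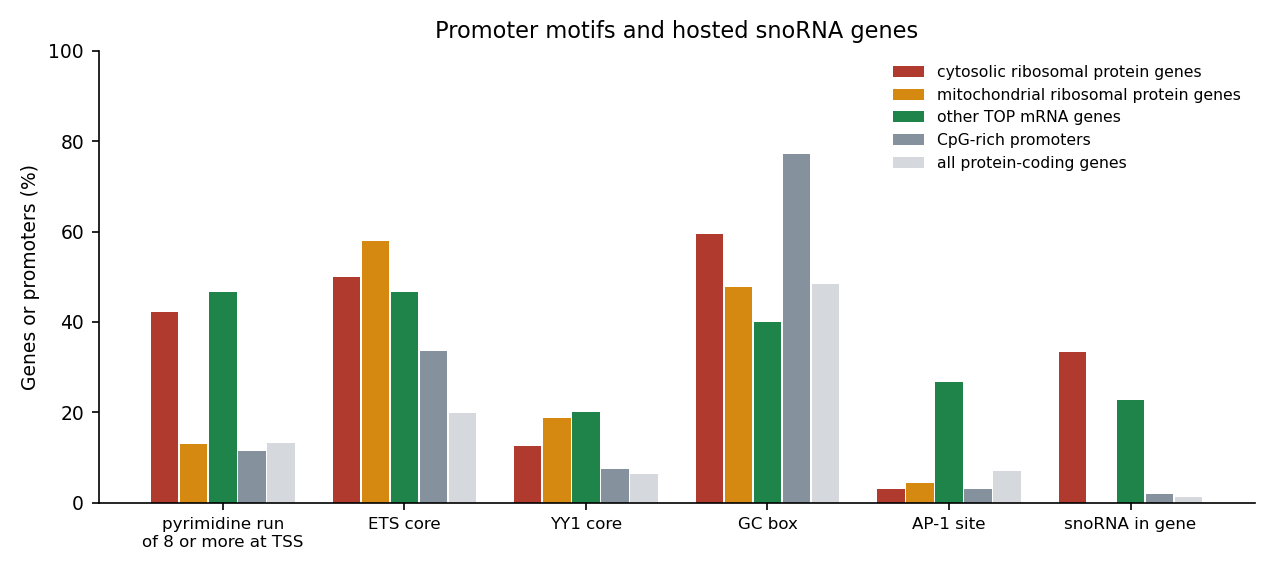
Share (%, vertical axis) of RefSeq promoters with a pyrimidine run of at least 8 bases at the start, the ETS core, the YY1 core, the GC box and the AP-1 site, and share of genes with a snoRNA gene inside, for 5 gene sets. The cytosolic ribosomal protein genes (red) stand at 42.2% for the pyrimidine run and 33.3% for snoRNA genes, against 13.3% and 1.18% of all genes. Other genes with TOP mRNAs stand at 46.7% and 22.7%.

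The other genes whose mRNAs carry a TOP tract, a list of 22 translation factors and related genes, were compared in the same way. LPS H3K27ac lay within 1 kb of 3 of the 22 (13.6%, 4.75 to 33.3%), namely Eef1b2 and Eef1d, subunits of the exchange factor of elongation factor 1, and Tpt1. LPS H3K4me1 lay within 1 kb of 9 (40.9%, 23.3 to 61.3%) and PBS H3K4me1 of 6 (27.3%, 13.2 to 48.2%), and none had PBS H3K27ac. Over all protein-coding genes the shares within 1 kb were 5.22% for LPS H3K27ac, 24.3% for LPS H3K4me1 and 16.0% for PBS H3K4me1. Each lay inside the interval of the 22 genes. For PBS H3K27ac it was 0.0820%, so finding none says little. The intervals of the 22 genes at 1 kb overlapped those of the ribosomal protein genes. Within 10 kb, 18 of the 22 had H3K4me1 under LPS and 18 under PBS (81.8%, 61.5 to 92.7% in each list). The PBS interval lay above that of the ribosomal protein genes (45.6%, 35.7 to 55.8%), and the LPS interval overlapped theirs (62.2%, 51.9 to 71.5%). Over all protein-coding genes the 10 kb shares were 47.8% under LPS and 41.3% under PBS, and over CpG-rich promoters 68.2% and 58.9%. The CpG-rich share under LPS lay inside the interval of the 22 genes. No test of these differences was made.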

How the data were processed

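The authors aligned the CUT&RUN reads to GRCm38 with Bowtie2 2.4.4, removed blacklisted regions and called peaks per library with MACS2 2.2.7.1, per the labels and the methods of the study. Each deposited list gives, per peak, a fold enrichment (a ratio of fragment coverage to control with a pseudocount of 1) and the −log10 of the p-value and of the q-value at the summit. The deposited score was not used. The smallest −log10 q in the lists was 2.00. Fold enrichment and q-values were not compared between lists. No peak list of the IgG libraries was used here.

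Genes came from GENCODE M21, another release of the authors' build. The TSS was the 5′ end of the APPRIS principal coding transcript, or the most upstream where starts tied. Promoters came from the RefSeq table of GRCm38.p6. Members, gene lists and motifs were chosen with earlier results of these data known. All protein-coding genes serve as the background.

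The fragment number and control level at a summit were solved from fold enrichment and the Poisson p, which returned the deposited −log10 p within 0.002 for 100.0% of peaks in each list, and the method was tested on simulated lists. Total depth also assumes an effective genome of 1870000000 bases and the smallest peak width as the fragment length, and is an estimate. Intervals are 95% Wilson intervals (scipy 1.17.1, Python 3.11.15).

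Named genes were members with H3K27ac within 1 kb, members with it within 10 kb only, the 5 highest H3K4me1 peaks within 1 kb in each list, members marked in 1 H3K4me1 list only (up to 10 per direction by q), up to 10 members with no peak in symbol order, and up to 6 paralogues or retrogenes. Alternatives were other TSSs, a summit rule, a −log10 q of at least 5, core members only, nearest TSS only, equal list lengths and a 500 bp window for positions.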

Additional observations from a re-analysis of the deposited data

How the results depend on the processing

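Of 75 values under other settings, 68 were counts equal to or within 1.5 times the reported count, or median positions on the same side of the TSS within 1 SD of the summits. These include the PBS H3K27ac counts, which were 0 under each setting. Settings that only remove peaks or genes could not have changed them. Keeping only peaks with a −log10 q of at least 5 left LPS H3K27ac at 5 of the 90 genes within 1 kb and 8 within 10 kb, and H3K4me1 within 1 kb at 12 under LPS and 6 under PBS. Counting a peak only for the nearest TSS left LPS H3K27ac at 11 genes within 10 kb. The median H3K27ac summit ranged up to 130 bp downstream (5′ end of the gene as TSS) and turned from 39.5 bp downstream to -27.0 bp, that is upstream, with core members only and also with the RefSeq start, an alternative chosen after seeing the data, so its side of the TSS rests on few peaks. The RefSeq start also gave Rpl18 a promoter peak of H3K27ac and removed LPS H3K4me1 within 1 kb from Rpl10, Rpl12 and Rpl35. The median LPS H3K4me1 summit stayed upstream under the other settings tried, from -100 to -77.0 bp. No paired analysis was possible because each treatment and antibody had 1 library, and for the same reason no replicate could be left out. At 5 to 23 fragments per H3K27ac summit, a gene without a peak may carry the mark below the threshold of the list.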

Other observations

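Ribosomal protein genes have left many processed pseudogenes, copies of their mRNAs in the genome. Those counted here were the 294 annotated processed pseudogenes whose symbol begins with Rpl or Rps and holds -ps. Copies annotated under other symbols were not in this set. Of the 294, none had H3K27ac within 1 kb of its 5′ end in either list. LPS H3K4me1 was found at 13 (4.42%, 2.60 to 7.42%) and PBS H3K4me1 at 8 (2.72%, 1.39 to 5.28%). Over all 10236 processed pseudogenes the shares were 0.205% for LPS H3K27ac, 3.17% for LPS H3K4me1 and 2.89% for PBS H3K4me1. Reads that align equally well to a gene and its copies can be lost or misplaced, and how they were treated is not given in the sources used here.

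Of 58 snoRNA genes inside ribosomal protein genes, 5 lay under a peak of either H3K4me1 list and none under H3K27ac. The share over all snoRNA genes was not worked out, so these counts do not show a trait of ribosomal protein genes. Snora3 in Rpl27a lay under the LPS H3K4me1 peak downstream of that gene's TSS, Snord100 in Rps12 under an H3K4me1 peak of each treatment, and Snora65 in Rpl12 under a PBS H3K4me1 peak. The others were Gm26448 in Rpsa under LPS and Gm27326 in Rpl23 under PBS. The number of H3K4me1 peaks within 10 kb reached 9 for Rps14 and Rps15a under LPS and 11 for Rps14 under PBS, and 20 of the 90 genes had 3 or more under LPS (22.2%, all genes 23.1%) and 14 under PBS (15.6%, all genes 18.2%), shares near the background.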
